A study of Mus musculus with 16 samples.

Results

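A set of 10 genes of the olfactory bulb and of the axons that enter it (Eomes, Tbx21, Cdhr1, Th, Scgn, Omp, S100a5, Ms4a15, Shisa3 and Frmd7) were followed mouse by mouse in bulk RNA sequencing of the mouse medial prefrontal cortex. They were chosen by their measured normalized read counts, as bulb and sensory axon genes with top loadings on the main variation between these same samples, and all 10 were among the 18424 genes measured. Their levels, and how far single mice stand from the others, are therefore a description of that variation and not a test of it. The genotype and treatment of the mice played no part in the choice.

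The 16 samples came from male C57BL/6N mice at postnatal day 120, with 4 mice in each of 4 groups. WT mice were wild type, and HT mice carried 1 germline copy of Arid1b truncated at exon 5, a gene whose product belongs to the SWI/SNF complex that remodels chromatin. The dams of the Veh groups (WT-Veh and HT-Veh) drank water with 0.2% saccharin, and those of the Flx groups (WT-Flx and HT-Flx) drank the same water with 0.1 mg/ml fluoxetine hydrochloride, a selective serotonin reuptake inhibitor. Pups were exposed through the milk from postnatal day 3 to 21, and all mice drank normal water after weaning. No litter, cage or sequencing batch was given for single samples, so p-values measure the spread between the mice as sampled. The values are normalized read counts, in which the authors divided each gene's estimated read count by a normalization factor of the sample, and the depth behind them is unknown. The totals of the samples lay between 92.8% and 104% of their mean. Arid1b itself ran from 1787 to 2831 in WT-Veh mice and from 1902 to 2433 in WT-Flx mice, against 1619 to 2005 for HT-Veh and 1545 to 1671 for HT-Flx. The labelled tissue was checked against 10 markers of cortical projection neurons, all of which were measured, and their summed level lay between 0.77 and 1.12 times its median in every sample.

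The olfactory bulb lies in front of the prefrontal cortex and is the relay of the sense of smell. Axons of the olfactory sensory neurons of the nose end there in glomeruli, where they contact the mitral and tufted cells, the output neurons of the bulb. Interneurons around the glomeruli, some of them dopaminergic, and granule cells deeper in the bulb shape that output, and new interneurons reach the bulb throughout life as migrating neuroblasts. In bulk tissue, fewer cells of a type and less RNA per cell cannot be told apart, and this holds for every value below.

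The 10 genes lay on 9 chromosomes of the GRCm38 build and were all annotated as protein coding. The genes known from mitral and tufted cells were Eomes (ENSMUSG00000032446, chr9:118478212-118486132), Tbx21 (ENSMUSG00000001444, chr11:97098071-97115331) and Cdhr1 (ENSMUSG00000021803, chr14:37077857-37098347). Those of the interneurons were Th (ENSMUSG00000000214, chr7:142892752-142931128) and Scgn (ENSMUSG00000021337, chr13:23953456-23991214), and those of the sensory neurons were Omp (ENSMUSG00000074006, chr7:98143359-98145502) and S100a5 (ENSMUSG00000001023, chr3:90608523-90611780). The remaining genes were Shisa3 (ENSMUSG00000050010, chr5:67607882-67623552), Frmd7 (ENSMUSG00000036131, chrX:50895180-50942710) and Ms4a15 (ENSMUSG00000067571, chr19:10978307-10993250). Omp lay within the span of Capn5 on the same strand without sharing an exon with it. Exons of Eomes overlapped the antisense gene Gm33460, and exons of Shisa3 overlapped Atp8a1 on the opposite strand. The libraries were stranded, but how strand was set in the quantification is not given in the sources used here, so the levels of Eomes and Shisa3 are uncertain to that extent.

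Since the 10 genes varied together, their promoters (from 250 bases before the start to 50 after it) were searched on both strands for 4 short motifs. Promoter sequences from RefSeq (GRCm38.p6) were matched for 9 of the 10 genes, all but Omp. AGGTGT, the core bound by T-box factors such as Eomes and Tbx21, was in 0 of the 9 and in 13.7% of all 32851 promoters. TAATTA, a homeodomain palindrome, was also in 0 of the 9, and in 5.29% of all promoters. CCCNNGGG, the palindrome of the Ebf factors of olfactory neurons, was in 2 of the 9 (Shisa3 and Frmd7) and in 13.7% of all promoters. TGACGTCA, the cAMP response element, was in 1 of the 9 (Th) and in 1.79% of all promoters. None of these motifs overlapped another in the member promoters, and a match is only a description of the letters. The 3 promoters with a match are shown because they carry those matches, written 5′ to 3′ on the strand of the gene with the matched motif in capitals. The Th window (chr7:142899946-142900245, minus strand) lay inside the annotated span of Th, with the motif starting 45 bases before the start. The Shisa3 window (chr5:67607633-67607932, plus strand) held its motif 205 bases before the start, and the Frmd7 window (chrX:50942720-50943019, minus strand) held it 134 bases before the start.
Th: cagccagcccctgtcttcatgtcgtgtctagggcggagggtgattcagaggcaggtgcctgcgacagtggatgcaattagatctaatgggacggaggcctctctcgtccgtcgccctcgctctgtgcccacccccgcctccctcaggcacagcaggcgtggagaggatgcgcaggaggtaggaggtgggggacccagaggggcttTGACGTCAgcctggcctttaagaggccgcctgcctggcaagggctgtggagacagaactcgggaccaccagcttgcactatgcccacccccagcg
Shisa3: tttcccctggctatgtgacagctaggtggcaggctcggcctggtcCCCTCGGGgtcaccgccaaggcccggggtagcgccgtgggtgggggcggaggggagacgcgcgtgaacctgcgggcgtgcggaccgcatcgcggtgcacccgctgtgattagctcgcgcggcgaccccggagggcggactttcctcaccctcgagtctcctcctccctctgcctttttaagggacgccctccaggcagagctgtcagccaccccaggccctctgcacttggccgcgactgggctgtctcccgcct
Frmd7: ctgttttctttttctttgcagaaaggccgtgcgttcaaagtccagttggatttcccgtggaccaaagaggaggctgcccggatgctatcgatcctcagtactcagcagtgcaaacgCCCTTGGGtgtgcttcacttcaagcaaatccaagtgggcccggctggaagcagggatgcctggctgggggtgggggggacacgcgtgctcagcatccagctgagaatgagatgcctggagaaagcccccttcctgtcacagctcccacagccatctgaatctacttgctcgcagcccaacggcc

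The mitral and tufted cell genes were high in the same few mice, 1 or more in each group except HT-Flx. Values are normalized read counts of replicates 1 to 4. Eomes (also called Tbr2), a T-box transcription factor, was 899, 1.75, 14.8 and 3.17 in the WT-Veh mice, 149, 318, 25.3 and 857 in the WT-Flx mice, 7.0, 2.29, 6.05 and 240.1 in the HT-Veh mice, and 9.70, 5.14, 0 and 10.4 in the HT-Flx mice. WT-Veh replicate 1 and WT-Flx replicate 4 stood highest, HT-Veh replicate 4 and WT-Flx replicates 1 and 2 followed, and no HT-Flx mouse reached the lowest WT-Flx mouse. Tbx21 (T-bet), another T-box factor of mitral and tufted cells, was 234, 7.23, 4.66 and 12.0 in the WT-Veh mice, 46.9, 56.1, 5.45 and 138 in the WT-Flx mice, 6.25, 7.64, 6.14 and 88.7 in the HT-Veh mice, and 9.92, 12.6, 9.98 and 9.14 in the HT-Flx mice. The same 5 mice were the highest for Tbx21, while WT-Flx replicate 3 lay below all 4 HT-Flx mice, so those groups overlapped. Cdhr1, a cadherin-related protein, was 3485, 80.1, 80.0 and 64.9 in the WT-Veh mice, 692, 1448, 127 and 2993 in the WT-Flx mice, 193, 117, 94.4 and 1239 in the HT-Veh mice, and 77.8, 153, 63.3 and 90.0 in the HT-Flx mice. Cdhr1 had the highest counts of the 10 genes in every mouse and was never at 0. The group means were 1315 ± 1243 in WT-Flx, 927 ± 1705 in WT-Veh, 411 ± 554 in HT-Veh and 95.9 ± 39.3 in HT-Flx (SD, n = 4 mice each), so in WT-Veh and HT-Veh the SD exceeded the mean.

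The interneuron genes showed the same mice at the top. Th, the rate-limiting enzyme of dopamine synthesis, which marks the dopaminergic cells around the glomeruli and is also present in axons that reach the cortex, was 1329, 20.9, 42.4 and 27.5 in the WT-Veh mice, 209, 339, 42.4 and 999 in the WT-Flx mice, 37.8, 21.8, 43.5 and 328 in the HT-Veh mice, and 36.3, 47.2, 22.5 and 41.5 in the HT-Flx mice. The 11 mice outside those 5 all lay between 20.9 and 47.2 for Th, and the 5 lay between 209 and 1329. Scgn, which encodes the calcium-binding protein secretagogin of bulb interneurons, was 359, 4.52, 3.48 and 2.20 in the WT-Veh mice, 51.3, 114, 5.84 and 311 in the WT-Flx mice, 3.59, 0.941, 3.73 and 129.6 in the HT-Veh mice, and 6.29, 6.28, 1.73 and 2.30 in the HT-Flx mice. Only the 5 mice had Scgn at 10 or more, and WT-Flx replicate 3, at 5.84, lay between the HT-Flx mice.

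The sensory neuron genes partly followed a different order. Omp, a cytoplasmic protein of mature olfactory sensory neurons, was 536, 8.15, 6.83 and 6.59 in the WT-Veh mice, 31.1, 103, 49.1 and 616 in the WT-Flx mice, 13.2, 8.58, 8.25 and 21.9 in the HT-Veh mice, and 6.28, 6.25, 11.5 and 10.3 in the HT-Flx mice. WT-Flx replicate 4 and WT-Veh replicate 1 were again the highest, but WT-Flx replicate 3 (49.1) stood above WT-Flx replicate 1 (31.1) and HT-Veh replicate 4 (21.9). S100a5, a calcium-binding protein of the same neurons, was 427, 0, 1.12 and 0 in the WT-Veh mice, 5.94, 75.5, 24.0 and 361 in the WT-Flx mice, 5.51, 0, 0.941 and 14.8 in the HT-Veh mice, and 2.52, 0, 0 and 1.33 in the HT-Flx mice. It was listed at 0 in 5 mice, and WT-Flx replicate 3 (24.0) again exceeded HT-Veh replicate 4 (14.8) and WT-Flx replicate 1 (5.94). For both genes every WT-Flx mouse lay above every HT-Flx mouse, though the gap for S100a5 was 5.94 against 2.52.

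Shisa3, which restrains the maturation of Wnt and FGF receptors, was 647, 27.9, 26.2 and 12.4 in the WT-Veh mice, 118, 264, 25.9 and 534 in the WT-Flx mice, 18.1, 14.2, 10.9 and 159 in the HT-Veh mice, and 23.6, 18.1, 18.7 and 13.7 in the HT-Flx mice. Its WT-Flx and HT-Flx mice were separated by a narrow margin (25.9 against 23.6), whereas WT-Veh replicates 2 and 3 lay above WT-Flx replicate 3. Frmd7, a FERM-domain protein of neurite outgrowth, was 619, 10.1, 15.5 and 11.4 in the WT-Veh mice, 89.5, 296, 21.8 and 716 in the WT-Flx mice, 10.8, 9.36, 13 and 193 in the HT-Veh mice, and 18.9, 30.1, 7.76 and 10.2 in the HT-Flx mice. HT-Flx replicate 2 (30.1) lay above WT-Flx replicate 3 (21.8) for Frmd7, so these groups overlapped. Ms4a15, a membrane protein with several membrane spans, was 778, 0, 8.81 and 0 in the WT-Veh mice, 165, 247, 9.51 and 723 in the WT-Flx mice, 0, 0, 1.98 and 191 in the HT-Veh mice, and 1.80, 4.56, 0.642 and 0 in the HT-Flx mice. It was listed at 0 in 5 mice and at 165 or more in the 5 high mice, with WT-Flx replicate 3 (9.51) and WT-Veh replicate 3 (8.81) next.

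**Figure D1:**
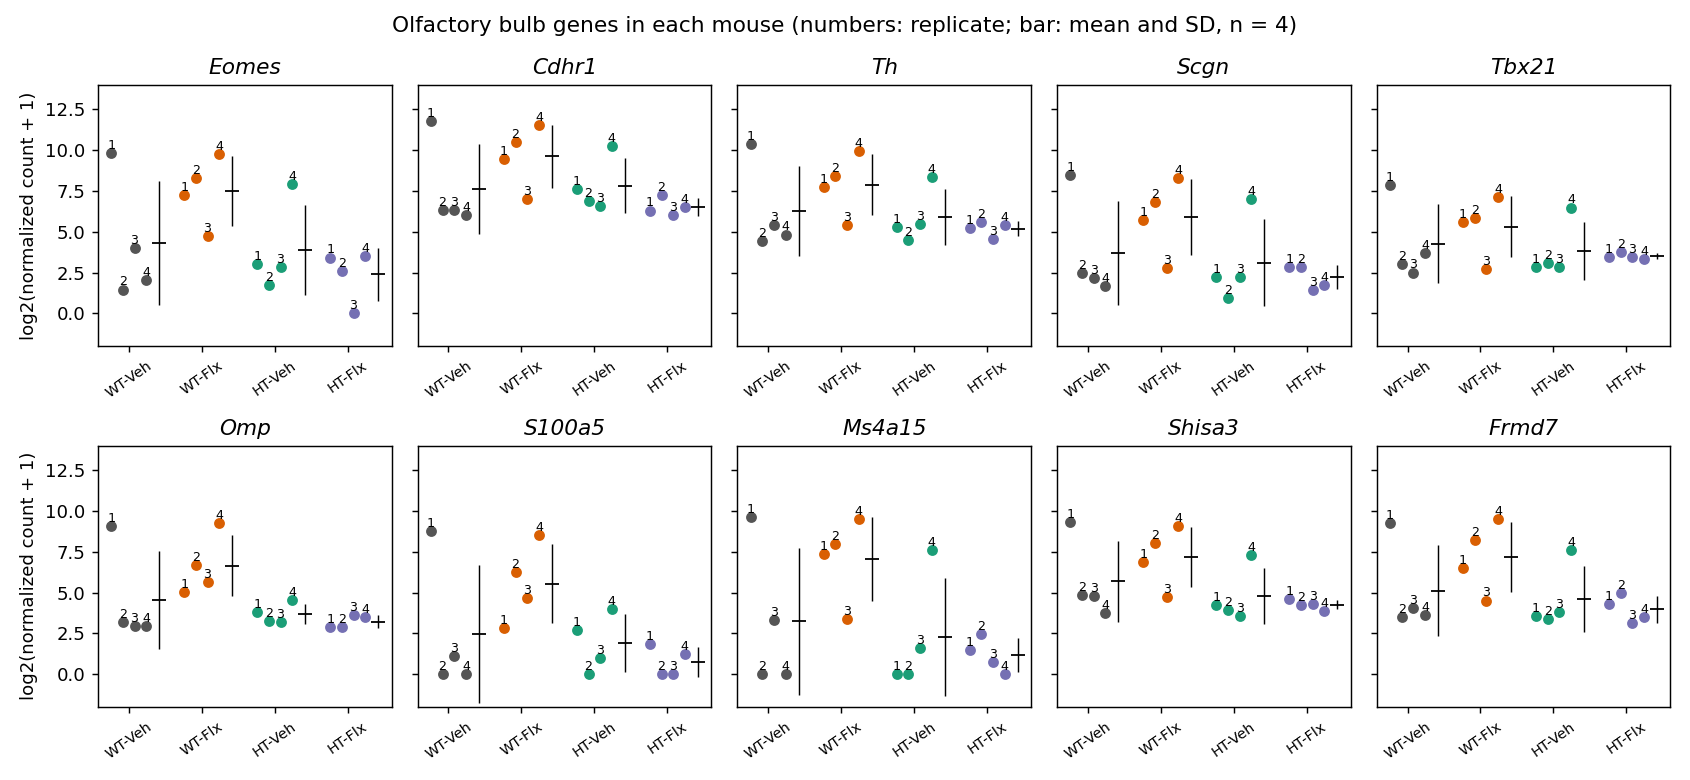
Level of the 10 bulb genes in each mouse on the log2(normalized count + 1) scale, by group, with the replicate number above each point and the mean and SD of the group (n = 4 mice) as a bar. WT-Veh replicate 1 and WT-Flx replicate 4 hold the 2 highest values in all 10 panels, and no HT-Flx mouse is among the 5 highest in any panel.

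Across the 10 genes, WT-Veh replicate 1 and WT-Flx replicate 4 held the top 2 ranks each time. WT-Flx replicate 2 ranked 3 or 4 for each gene, and HT-Veh replicate 4 and WT-Flx replicate 1 were always within the top 6. The summed value of the genes was 9312 in WT-Veh replicate 1, 8249 in WT-Flx replicate 4, 3262 in WT-Flx replicate 2, 2605 in HT-Veh replicate 4 and 1557 in WT-Flx replicate 1. It was 336 in WT-Flx replicate 3 and between 136 and 296 in the 10 others. Relative to the median mouse, the sum thus ranged from 0.56 to 38.3 times. On the log2 scale the range over the 16 mice was widest for Eomes (9.81) and narrowest for Tbx21 (5.38). The share of a gene's log2 variance that lay within the 4 groups was 58.8% for Omp, the lowest, and 83.7% for Tbx21, the highest, so for every gene more of the variance lay between mice of 1 group than between group means. With 4 groups of 4 mice, most of the variance would lie within groups if the groups did not differ, and it can also do so where they differ. That more of it lay within groups therefore does not by itself tell whether the groups differed, and the shares were not tested. Divided by exon length, S100a5 was the highest of the 10 in WT-Veh replicate 1, at 988 normalized counts per kb of exon, above Cdhr1 at 804 and Th at 562.

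The genes varied together over the mice, with the sensory neuron genes the least alike. The correlation of a gene with the mean standardized log2 profile of the other 9, over the 16 mice, was highest for Th (r = 0.989) and lowest for Omp (r = 0.903) and S100a5 (r = 0.919). These values describe points that share libraries and that fall into a high and a low set, so they rest largely on the contrast between those sets and no p is given. Ratios within a mouse showed the difference more directly. In mice with both genes at 50 or more, Eomes lay between 19.4% and 28.6% of Cdhr1 (5 mice), Scgn between 7.41% and 10.5% (5 mice) and Shisa3 between 12.8% and 18.6% (5 mice). Ms4a15 lay between 15.4% and 24.2%, Th between 23.4% and 38.1%, Frmd7 between 12.9% and 23.9% (5 mice each) and Tbx21 between 3.87% and 7.16% (4 mice). For these 7 genes the highest ratio was 1.41 to 1.85 times the lowest. By contrast, Omp lay between 7.09% and 20.6% (3 mice), a 2.90-fold range, and S100a5 between 5.21% and 12.2% (3 mice), a 2.35-fold range.

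The spread of the sensory neuron genes was wider still when every mouse with Eomes at 20 or more was taken. Omp was 1.77% of Cdhr1 in HT-Veh replicate 4, 4.50% in WT-Flx replicate 1, 7.09% in WT-Flx replicate 2, 15.4% in WT-Veh replicate 1, 20.6% in WT-Flx replicate 4 and 38.7% in WT-Flx replicate 3. S100a5 as a share of Eomes was 6.17%, 4.00%, 23.7%, 47.5%, 42.2% and 94.8% in the same mice, which differs from the order of Omp only in 2 exchanges of neighbours. Thus the sensory neuron genes were lowest relative to Cdhr1 and Eomes in HT-Veh replicate 4 and WT-Flx replicate 1, and highest relative to them in WT-Flx replicate 3, where Omp (49.1) still lay below Cdhr1 (127) and S100a5 (24.0) just below Eomes (25.3). Ratios at these low values are less precise, since Omp was at 21.9 and S100a5 at 5.94 in the lowest of these mice.

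**Figure D2:**
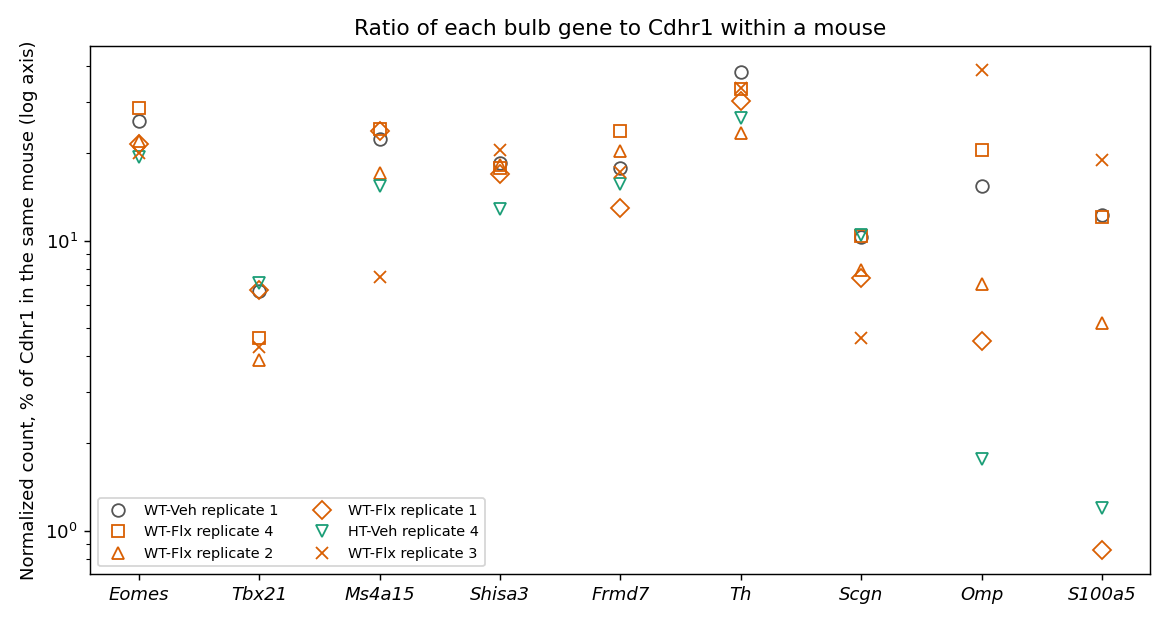
Normalized count of 9 bulb genes as a percentage of Cdhr1 in the same mouse, on a log axis, for the 6 mice with Eomes at 20 or more, with no minimum on the gene itself. The points of Eomes, Shisa3, Frmd7 and Th lie close together, while Omp runs from 1.77% to 38.7%, and S100a5 spreads in a similar way.

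The place of the genes in the variation between mice was described by a principal component analysis of log2(value + 1) over the 17567 genes that reached 10 in 4 or more mice. The first component held 24.2% of the variance and the next 9.58%. All 10 genes were among the 100 highest loadings, which is how they had been chosen, with Ms4a15 at rank 1, Eomes 2, S100a5 3, Scgn 5, Frmd7 8, Cdhr1 10, Th 11, Shisa3 13, Omp 15 and Tbx21 27. Together they made up 6.16% of the squared loadings. The component was not the bulb genes alone: WT-Flx replicate 1 had the second highest score (45.0, after 69.9 in WT-Veh replicate 1 and before 40.4 in WT-Flx replicate 4), although its bulb gene sum was lower than that of HT-Veh replicate 4 (score 16.3) and WT-Flx replicate 2 (score 9.06). When each gene was scaled to unit SD, so that strongly varying genes carried no extra weight, 0 of the 10 were among the top 100 and their ranks ran from 740 (Tbx21) to 1936 (S100a5).

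**Figure D3:**
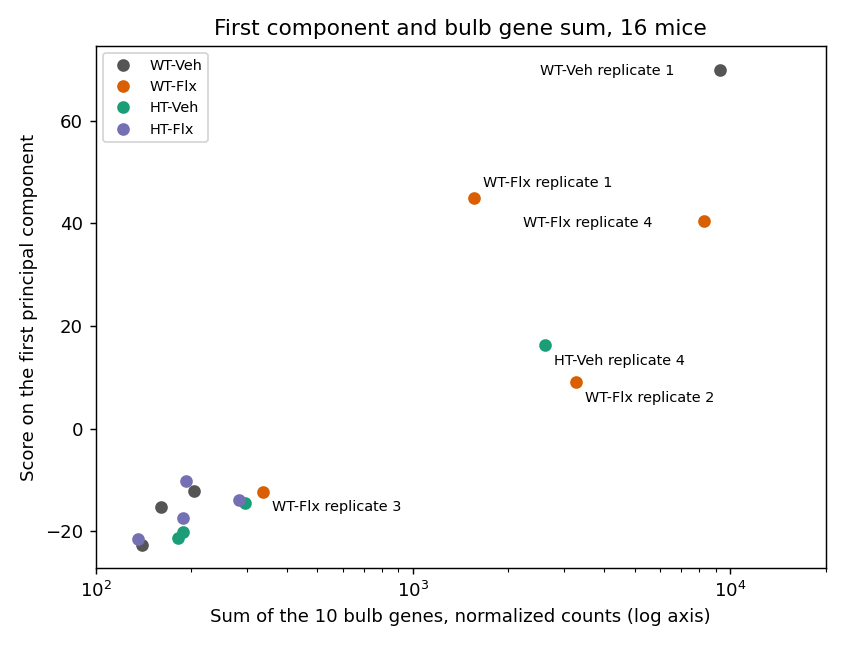
Score of each of the 16 mice on the first principal component against the sum of the 10 bulb genes in normalized counts (log axis), coloured by group. The 5 mice with sums of 1557 or more have scores above 9, and WT-Flx replicate 1 lies above mice with larger sums.

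The profiles most like the mean profile of the 10 genes, among 17544 other genes with a symbol, belonged to Trh (r = 0.986), Cacng5 (0.986), Sp8 (0.985), Pbx3 (0.983), Hephl1 (0.980), Doc2g (0.977), Meis1 (0.974), Gng4 (0.972), Dlx5 (0.972) and Ptpro (0.971), each as Pearson's r over 16 mice. Without WT-Veh replicate 1 and WT-Flx replicate 4 these r values lay between 0.935 and 0.969 (n = 14 mice), but the other high mice remained in that set. Spearman's rho over the 16 mice was lower, between 0.653 (Gng4) and 0.962 (Pbx3). Hephl1 had a median of 0, so its r rests on the minority of mice with a value above 0. Trh, which encodes thyrotropin-releasing hormone, ran from 11.8 to 520 normalized counts (519.9 in WT-Veh replicate 1), and Sp8, a transcription factor of bulb interneurons, from 32.6 to 992. In all, 89 genes had an r of at least 0.9 and 34 an r of -0.9 or lower.

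Lists of other markers were set beside the 10 genes. Of 6 further mitral and tufted cell markers, 4 were measured, and their summed level was 25.1 times the median mouse in WT-Veh replicate 1, 14.5 times in WT-Flx replicate 4, 6.26 times in HT-Veh replicate 4, 6.12 times in WT-Flx replicate 2 and 5.27 times in WT-Flx replicate 1. Doc2g had the widest range of these (53.2 to 2661), followed by Barhl2 (0 to 40.3), and Vdr had the narrowest (1.15 to 44.6). In WT-Flx replicate 3 the same sum stood at 1.00 times the median. The 7 markers of juxtaglomerular interneurons reached 4.94 and 4.20 times the median in WT-Veh replicate 1 and WT-Flx replicate 4. Slc6a3, the dopamine transporter, ran from 0 to 68.4 and Trh had the next widest range, whereas Ddc, which also serves serotonin synthesis, had the narrowest (78.6 to 207). The 11 granule cell and precursor markers reached 2.18 and 2.25 times the median in those mice, with Sp8 and Prokr2 (16.6 to 133) the widest and Etv1, a gene of cortical layer V too, the narrowest (2038 to 3207). Meis2, Etv1 and Synpr, with medians of 4309, 2723 and 2386, made up most of this sum, against a median of 55.0 for Sp8. Olfactory ensheathing glia markers (6 genes) reached 2.01 and 1.99 times, led in range by Prss56 (0 to 44.0) and Fabp7 (169 to 1726), with Kctd12 the narrowest (2142 to 4196). Migrating neuroblast markers (5 genes) reached 1.39 and 1.86 times, with Igfbpl1 (0.792 to 91.0) and Cd24a (58.7 to 458) the widest and Sox11 (353 to 797) the narrowest. WT-Flx replicate 1, although high for the 10 genes, had the lowest neuroblast sum of the 16 mice (0.68 times the median). That sum was carried by Dcx, the most abundant of the 5 (median 1723), which was lowest in this mouse (1051). The mean log2(value + 1) of the 5 markers was not lowest there, at 7.72 within a range of 7.06 to 9.25. Dcx, a gene of migrating neurons, had an r of only 0.39 with the profile of the 10 genes (n = 16 mice).

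The 9 further sensory neuron markers did not share this pattern as a sum, which lay between 2155 and 2698 normalized counts in all mice. Adcy3, which other neurons also express, was the most abundant and the narrowest in range (1098 to 1534), followed by Gng13 and Kirrel2, with medians of 549 and 381. Stoml3, in contrast, ran from 0 to 295 with its highest value in WT-Flx replicate 4, and Umodl1 from 5.97 to 59.6. Over the 16 mice, r with the profile of the 10 genes was 0.88 for Stoml3 and 0.69 for Cnga2, lay between 0.19 and 0.46 for Rtp1, Umodl1, Ano2 and Cnga4, and was negative for Kirrel2 (-0.089), Gng13 (-0.14) and Adcy3 (-0.49). Cortical projection neuron markers were lowest in WT-Veh replicate 1 (0.77 times the median) and WT-Flx replicate 4 (0.83 times), with Slc17a7, the vesicular glutamate transporter, at 32162 in WT-Veh replicate 1 against a median of 40678. Foxp2 (196 to 581) had the widest range of that list. The 7 striatal projection neuron markers were highest in HT-Veh replicate 4 (2.63 times the median), where Drd2 was 607 and Gpr6 255, and were at 0.63 times the median in WT-Veh replicate 1, the lowest of the 16. Their narrowest gene was Ppp1r1b (2116 to 6589). Choroid plexus markers (5 of 6 measured) were highest in WT-Veh replicate 4 (2.76 times), with Ttr at 243 there, Folr1 from 0 to 22.0 and Kcnj13 from 15.5 to 36.3.

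**Figure D4:**
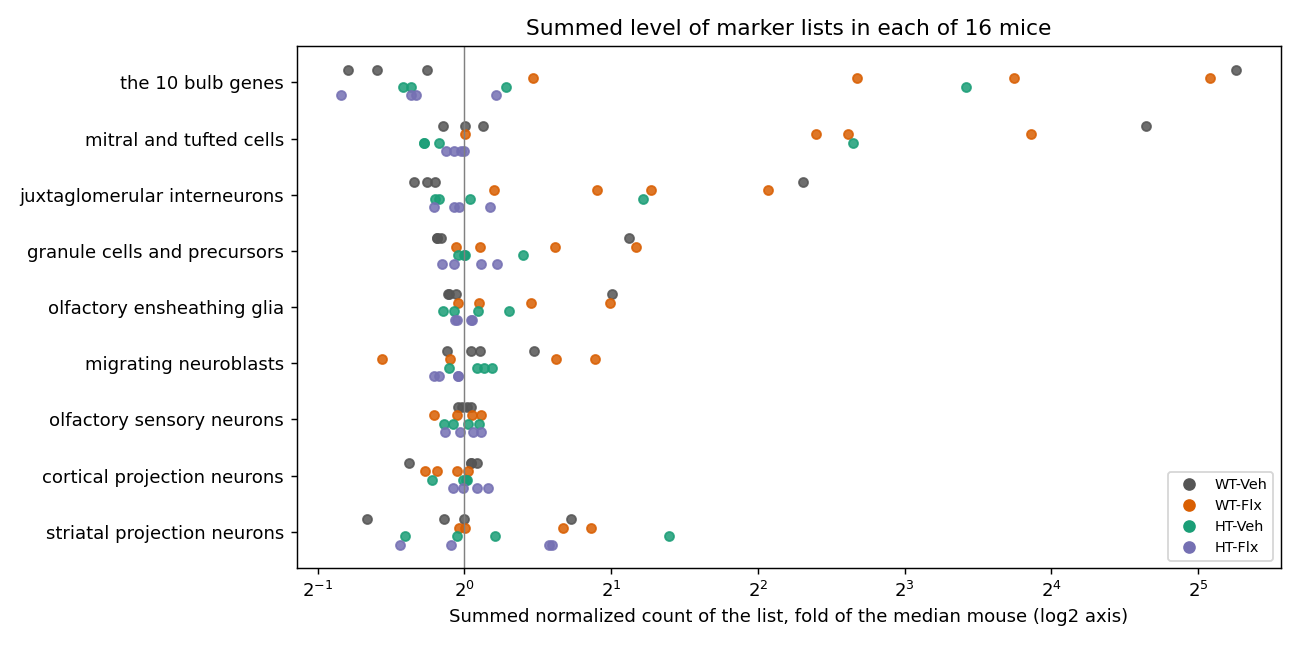
Summed normalized count of each marker list as a fold of the median mouse (log2 axis), 1 point per mouse, coloured by group. The sums of the 10 bulb genes and of the mitral and tufted cell markers reach 38.3 and 25.1 times the median, those of the other bulb lists spread less, and the cortical markers stay between 0.77 and 1.12 times. Each sum is weighted towards the most abundant genes of its list.

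To ask whether the 10 genes differed between the groups, limma was applied to log2(value + 1) across all genes, with Benjamini-Hochberg adjustment of the p-values. None of the 10 passed an adjusted p of 0.05 in any of 6 comparisons. Because the 10 genes vary together, they are not 10 independent observations, and any count of them is read with that in mind. Comparisons that share a group (WT-Flx, for example, enters 2 of them) also share its mice.

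The widest separation was between HT-Flx and WT-Flx, in which the genes were lower in HT-Flx. Of the 10 genes, 7 passed the filter on low values, and 0 of them passed an adjusted p of 0.05, against 0.0417% of all 16788 genes tested. All 7 had an unadjusted p under 0.05 and were lower in HT-Flx, against 4.87% of all genes in that direction and 10.4% in either. A gene that is near 0 in HT-Flx enters the test only through WT-Flx, so this count and the median change of the 7 (log2 change -3.10, against 0.0081 over all genes) are given as a description. Eomes differed most, with a log2 change of -5.12 (SE 0.975, adjusted p = 0.179, limma), and it ranked 19 of all genes by p. For Omp the log2 change was -3.44 (SE 0.718) and for Cdhr1 -3.10 (SE 0.722), each with an adjusted p of 0.289. Shisa3 was lower by the same measure, with a log2 change of -2.93 (SE 0.689), and so was Frmd7, with -3.20 (SE 0.839). For Th the log2 change was -2.69 (SE 0.70), and for Tbx21 it was smallest, at -1.80 (SE 0.717, adjusted p = 0.429, limma). Scgn, S100a5 and Ms4a15 were under the filter. Of the 7 genes tested, 3 had every HT-Flx mouse below every WT-Flx mouse (Eomes, Omp and Shisa3), against 3.13% of all genes tested in that direction and 5.83% in either. S100a5 and Ms4a15, which were not tested, were separated in the same direction, with HT-Flx values of at most 2.52 and 4.56. This count too is a description. The result depended on WT-Flx replicate 3, the WT-Flx mouse with low values. Without it, 6 of the 7 genes passed an adjusted p of 0.05 (all but Omp, adjusted p = 0.082, limma), and 23 of all genes did. That mouse is marked out by the same values that chose the genes, and the genes vary together. The count without it is therefore a description of the dependence on 1 mouse and not a test. Without WT-Flx replicate 4 the median log2 change was -2.45 and 0 genes passed.

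WT-Flx and WT-Veh overlapped for all 10 genes. The log2 changes were positive for each of the 10, with a median of 2.09 against -0.00091 over all genes, but 0 of the 10 had an unadjusted p under 0.05, against 4.2% of all 16833 genes, and 0% of all genes passed the adjusted threshold. Ms4a15 changed most (log2 change 3.83, SE 2.01) and Tbx21 least (1.03, SE 1.2). This comparison depended on WT-Veh replicate 1. Without it, the median log2 change was 3.38 over the 7 genes then tested, and 0 still passed the adjusted threshold. That mouse stood apart on the values that chose the genes, and the genes then pass the filter mainly through WT-Flx. The change without it is therefore a description and not a test. No gene separated the groups, whereas 2.89% of all genes did.

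Between HT-Veh and WT-Veh only 4 of the 10 genes passed the filter, with 0 past the adjusted threshold (0.0178% of all 16832 genes) and 0 at an unadjusted p under 0.05 (4.88% of all genes). Shisa3 had the largest log2 change (-0.91, SE 1.18) and Cdhr1 the smallest (0.21, SE 1.25). Their direction was not stable, since Shisa3 was at 0.31 without WT-Veh replicate 1 and Cdhr1 at -0.60 without HT-Veh replicate 4. Between HT-Flx and HT-Veh, 5 genes passed the filter, all with negative log2 changes, of which 0 had an unadjusted p under 0.05 (3.07% of all 16814 genes) and 0 passed the adjusted threshold (0% of all genes). The largest was Cdhr1 (log2 change -1.31, SE 0.643) and the smallest Omp (-0.49, SE 0.419). This comparison depended on HT-Veh replicate 4: without it the median log2 change was 0.23 instead of -0.61. In neither comparison did a gene separate the groups, against 3.84% and 1.99% of all genes.

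When genotype was compared over both treatments in all 16 mice, with treatment as a second factor, the log2 changes of all 10 genes were negative (median -2.03, against 0.0044 over all 17567 genes). Of the 10, 5 had an unadjusted p under 0.05 (Eomes, Omp, S100a5, Ms4a15 and Shisa3), against 5.44% of all genes in the same direction and 11.9% in either, and 0 passed the adjusted threshold (0.0398% of all genes). S100a5 and Ms4a15 each reached 10 in only 5 mice, all of them WT except HT-Veh replicate 4. The genes were also chosen for their variation over these 16 mice and vary together, so this count is a description and not a test. Ms4a15 had the largest change (log2 change -3.41, SE 1.44, adjusted p = 0.391, limma) and Tbx21 the smallest (-1.13, SE 0.754). The count was 1 without WT-Veh replicate 1, 1 without WT-Flx replicate 4 and 10 without HT-Veh replicate 4. The interaction (how far the fluoxetine difference of HT mice departed from that of WT mice) was negative for all 10 genes (median -2.88, against 0.0021), with 0 at an unadjusted p under 0.05 (4.29% of all genes) and 0 past the adjusted threshold (0% of all genes). It was largest for Ms4a15 (log2 -4.95, SE 2.71) and smallest for Tbx21 (-1.35, SE 1.52), and the difference between the fluoxetine changes in the genotypes was thus not past the threshold. Without WT-Veh replicate 1, 0 of the 10 still passed the adjusted threshold for the interaction. Counts at an unadjusted p in fits without a mouse have no share of all genes beside them. The mice left out stood apart on the values that chose the genes, so such counts only describe the dependence on single mice.

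**Figure D5:**
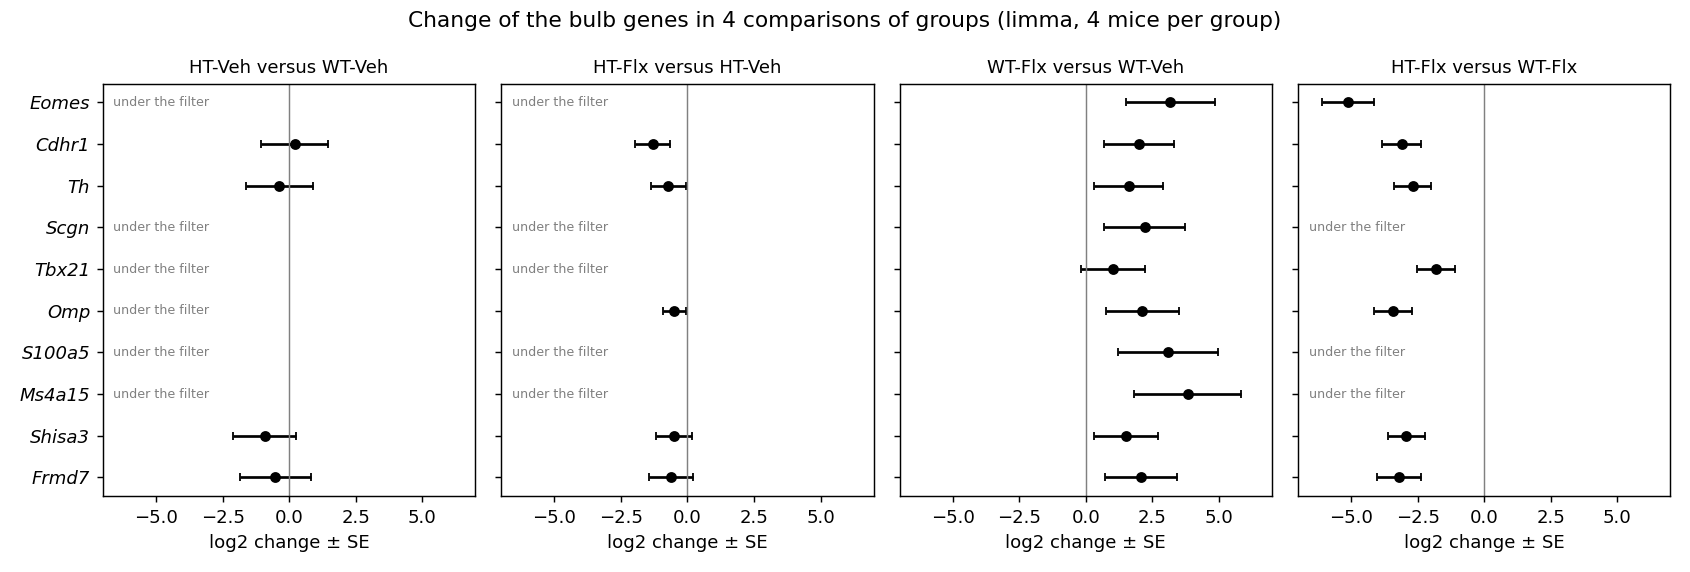
Log2 change (limma, with its SE) of the 10 bulb genes in the 4 comparisons of 2 groups, each with 4 mice per group, with genes under the filter on low values marked. The changes of HT-Flx against WT-Flx lie between -5.12 and -1.80, and those of WT-Flx against WT-Veh between 1.03 and 3.83 with SEs of up to 2.01.

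Between HT-Flx and WT-Flx, 0 genes of the other bulb lists passed an adjusted p of 0.05. Among the tested markers, 2 of 3 of the mitral and tufted cell list, 3 of 6 of the juxtaglomerular list, 7 of 11 of the granule cell list and 2 of 5 of the ensheathing glia list had an unadjusted p under 0.05 and were lower in HT-Flx (4.87% of all genes were). Markers of these lists varied with the 10 genes over the same mice to differing degrees (r = 0.986 for Trh, 0.091 for Etv1). A marker near 0 in HT-Flx also enters only through WT-Flx. These counts are therefore a description and not a separate test. Sp8 had a log2 change of -2.43 (SE 0.533), Trh of -2.75 (SE 0.632) and Doc2g of -2.64 (SE 0.601), each with an adjusted p of 0.289. The lowest adjusted p of the other bulb lists was 0.103, for a marker of the ensheathing glia list (limma). The sensory neuron list had 1 of 9 at that level (Stoml3), with a median log2 change of -0.17 and positive changes for Adcy3, Gng13 and Kirrel2. The neuroblast list had 0 of 5 and the striatal list 0 of 7, while 1 of 10 cortical markers was higher in HT-Flx. The part that the bulb content of the samples had in the changes of other genes was not tested.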

How the data were processed

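Libraries were prepared for the authors by a sequencing company with an mRNA kit, stranded per the labels, and sequenced in pairs. Per the labels and the study's methods, reads were quantified with Salmon (version 1.1.0) on GRCm38, summarised to genes and normalized in DESeq2 (version 1.30.1). The deposited signal is the normalized read count of 18424 genes in 16 samples; all columns were used. At most 54.9% of low values in a sample were whole multiples of a common step (within 0.05 of a step), so reads could not be recovered and depth is unknown.

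Here, limma (version 3.58.1, R 4.3.3, with an intensity trend) was run on log2(value + 1) for genes at 10 or more in at least 4 samples of the fit. Comparisons of 2 groups had no covariates. The genotype and interaction fits used all 16 samples, the genotype fit with treatment as a second factor and the interaction fit with no covariate beyond the group means. Two-sided p-values were adjusted over all genes. A log2 change on this scale understates that of low genes. The fit was tested on simulated data with independent noise in each gene. That does not cover genes that vary together or that stand out in single mice, as the 10 genes do. Gene positions came from GENCODE (GRCm38).

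The 10 genes, marker lists and tests were chosen with earlier results of these data known. Named genes were the 10 members (in HT-Flx against WT-Flx all tested members, elsewhere those with the largest and smallest change), the 10 most similar profiles, and from each list the 2 genes with the widest and the 1 with the narrowest log2 range; Sp8, Trh and Doc2g in the last comparison were picked after their values were seen. Of the genes set by this rule, 1 is not reported here. Mitral and tufted cell markers Lhx1 and Lhx5 and the choroid plexus marker Otx2 were not analysed here. Alternatives were pseudocounts of 0.1 and 8, no filter, a mean of at least 100, upper quartile and quantile normalization, sample quality weights, a block for the replicate number, a fit of all groups at once and leaving out each mouse; for ratios, loadings and profiles, other scalings, correlations and minimums, of which the ratios with no minimum and the loadings without WT-Veh replicate 1 were added after seeing the data.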

Additional observations from a re-analysis of the deposited data

Results flagged for a closer look

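Within a group of 4 mice, a value was singled out when its gap to the nearest other mouse as a share of the group's whole range on the log2 scale exceeded the 95% critical value of Dixon's test. This was met in 8 of the 40 combinations of gene and group. Chance gives it in about 1 in 20 groups, but the 10 genes were chosen for their variation between these same mice and vary together, so that rate is no yardstick for them and the values only describe which mice stood apart. WT-Veh replicate 1 stood above the other WT-Veh mice for Omp (gap 0.956 of the range), Cdhr1 (0.948), Frmd7 (0.901), Scgn (0.885), S100a5 (0.876) and Th (0.834). HT-Veh replicate 4 stood above the other HT-Veh mice for Tbx21 (0.925) and Frmd7 (0.896). No mouse of the WT-Flx or HT-Flx group was singled out for any of the 10 genes.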

How the results depend on the processing

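Of the alternative fits, 287 of the log2 changes of single genes kept their direction and side of the threshold, 7 passed the threshold and 5 changed sign. The sign changes were those of Cdhr1 between HT-Veh and WT-Veh without HT-Veh replicate 4 (-0.60), WT-Veh replicate 2 (-0.22), WT-Veh replicate 3 (-0.22) or WT-Veh replicate 4 (-0.32), with a range of -0.60 to 1.59 over the mice left out, and that of Shisa3 in the same comparison without WT-Veh replicate 1 (0.31, range -1.76 to 0.31). The count of genes past an adjusted p of 0.05 in HT-Flx against WT-Flx, 0 as reported, was 0 to 6 when single mice were left out and 1 with the replicate block (Eomes, adjusted p = 0.0047, limma; 5 of all genes were called). The correlation of the deviations of same-numbered mice exceeded 0.1 in 0 of 4 pairs in that comparison (mean 0.0266), in 3 of 4 for WT-Flx against WT-Veh (mean 0.106), in 2 of 4 for HT-Veh against WT-Veh and in 1 of 4 for HT-Flx against HT-Veh. As it did not do so in every pair of any comparison and no label links the numbers, the mice were not treated as paired, and the block changed no other count past the adjusted threshold. No alternative brought a member past that threshold in the other 5 comparisons. The count of members at an unadjusted p under 0.05 moved by over 1.5 times in 31 alternative fits and did not in 85. With sample quality weights it was 0 instead of 5 for genotype and 9 instead of 0 in WT-Flx against WT-Veh. The share of all genes at that level under the weights is not given, so these counts only show that the number is unstable. With genes scaled to unit SD, 0 of the 10 were among the top 100 loadings. By Spearman's rho, 1 of the 10 most similar genes was shared. With no minimum on the gene beside Cdhr1, the log2 ratio of highest to lowest was 3.87 for Eomes, 1.5 for Th, 3.70 for Scgn, 2.51 for Tbx21, 4.46 for Omp, 4.46 for S100a5, 4.57 for Ms4a15, 1.89 for Shisa3 and 2.12 for Frmd7, since low values then enter. Depth is unknown, so no counting error can be given for low values.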
